A study of Mus musculus with 7 samples.

Results

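Genes induced by interferon, together with the proteins that sense viral RNA, were examined as a set of 45 listed genes on 7 arrays that compared group 2 innate lymphoid cells (ILC2s) of wild-type mice with those of mice lacking the transcriptional repressor Gfi1. Members were chosen by gene symbol with earlier results of these data known. The array's probes were matched to symbols through their transcript accessions. A named probe was found for 43 of the 45 genes, and the antiviral GTPases Mx1 and Mx2 were not analysed here. Of the 43, Ifi44 was well above background on 1 array of 7 and was not tested, which left 42 tested members among 25349 tested genes.

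The wild-type group was Gfi1+/+ and the knockout group was homozygous for Gfi1GFP, an allele in which a GFP cassette sits in the Gfi1 locus, ends Gfi1 function and reports the activity of the promoter. All mice of both groups had been injected with IL-25 on 4 days, and on day 5 ILC2s of the mesenteric lymph nodes were sorted as Lin- cells positive for Sca-1, ICOS, CD127 and c-Kit. Cells of both groups then grew for 6 days in medium with IL-25 and IL-2, each at 50 ng/ml, and 10 ng/ml of IL-7, so no interferon or viral stimulus was given in either group according to the labels. A sample was a pool of 3 wild-type or 6 knockout mice, with 4 wild-type and 3 knockout samples in all; the labels give neither age nor sex. On every array the Cy5 channel held the ILC2 sample and the Cy3 channel a commercial universal mouse reference RNA. Levels are given as log2 ratios of Cy5 over Cy3, except where sample-channel signal is stated, and a difference is the mean of the arrays labelled knockout minus the mean of the wild-type arrays. The sorted pools are bulk samples, in which fewer cells of a type and less RNA per cell cannot be told apart.

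Type I and type III interferons signal through paired receptors to kinases of the Janus family, which activate a transcription factor complex that includes STAT2 and IRF9. That complex binds the interferon-stimulated response element (ISRE) in the promoters of its target genes, while interferon gamma acts on a gamma-activated site (GAS). The products include sensors such as RIG-I and MDA5, which detect viral RNA in the cytoplasm and trigger more interferon, and effectors that degrade RNA, modify proteins or attack membranes of pathogens. Many of these genes also have a basal level in cells that have received no interferon.

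The arrays correlated with each other at 0.979 to 0.989 within the wild-type group, 0.969 to 0.980 within the knockout group and 0.942 to 0.969 between them, over all tested genes. The single Gfi1 probe read 1.90, 1.87, 2.36 and 1.96 on wild-type arrays 1 to 4 and 4.29, 4.25 and 4.29 on the arrays labelled knockout, where the signal was higher. Where this probe lies with respect to the cassette was not determined, so it does not check the labels, and the knockout arrays are named by label throughout. Xist, transcribed from an inactive X chromosome, read 2.79 on wild-type array 3, 2.81 on wild-type array 4 and 3.26 on knockout array 3, against 0.04 to 0.13 on the other arrays. The Y-linked Ddx3y ran the opposite way on the same arrays, so these 3 pools differed from the other 4 in these transcripts, and values within each set are given below. Arrays came from 3 slides: wild-type array 4 and knockout array 1 shared a slide, wild-type array 1 and knockout arrays 2 and 3 shared another, and wild-type arrays 2 and 3 were together on the last. Among markers of the sorted population, 3 of 12 tested ILC2 genes were called lower in limma (25%) and none higher. Over all tested genes 7.52% were called, 4.24% lower. The 3 were the IL-33 receptor Il1rl1 (-1.89, adjusted p = 2e-04), the transcription factor Gata3 (-0.93, adjusted p = 0.0101) and the growth factor Areg (-0.42, adjusted p = 0.0301). Differences were below 0 in 10 of the 12, with a median of -0.30, against -0.01 over all genes. The groups did not overlap in 5 of them, all lower (all genes 18.3%).

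The interferon-stimulated genes and sensors that changed were lower on the arrays labelled knockout, with the exception of Gbp4, and most members did not pass the test. In limma, with p-values adjusted over every tested gene by the method of Benjamini and Hochberg, 9 of 42 members passed an adjusted p of 0.05 (21.4%), 8 of them lower and 1 higher. The background over all tested genes was 7.52% called, 4.24% lower and 3.28% higher. The RNA sensors Ddx58 and Ifih1, the RNA-degradation activator Oas1a, the ubiquitin-like modifier Isg15 and its protease Usp18, together with Ifi27, Isg20 and Parp14, were lower, and the GTPase Gbp4 was higher. Differences were below 0 in 27 members and above 0 in 15, with a median of -0.10, against -0.01 over all genes. The 2 groups did not overlap in 13 members, 12 lower and 1 higher, while the share over all tested genes was 18.3%. Before adjustment, 20 members had a p under 0.05 (47.6%), against 19.5% of all genes. These shares are a description, as the list was not chosen independently of earlier results of these data. Fitted with slide as a fixed block, 7 of the 9 calls ended and those of Oas1a and Ddx58 stayed, with 1.89% of all genes called. With arrays centred on their median in place of loess, 2 members were called higher and 7 lower, of 1614 genes. The share of higher genes among all calls moved from 43.6% to 55.5%.

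**Figure D1:**
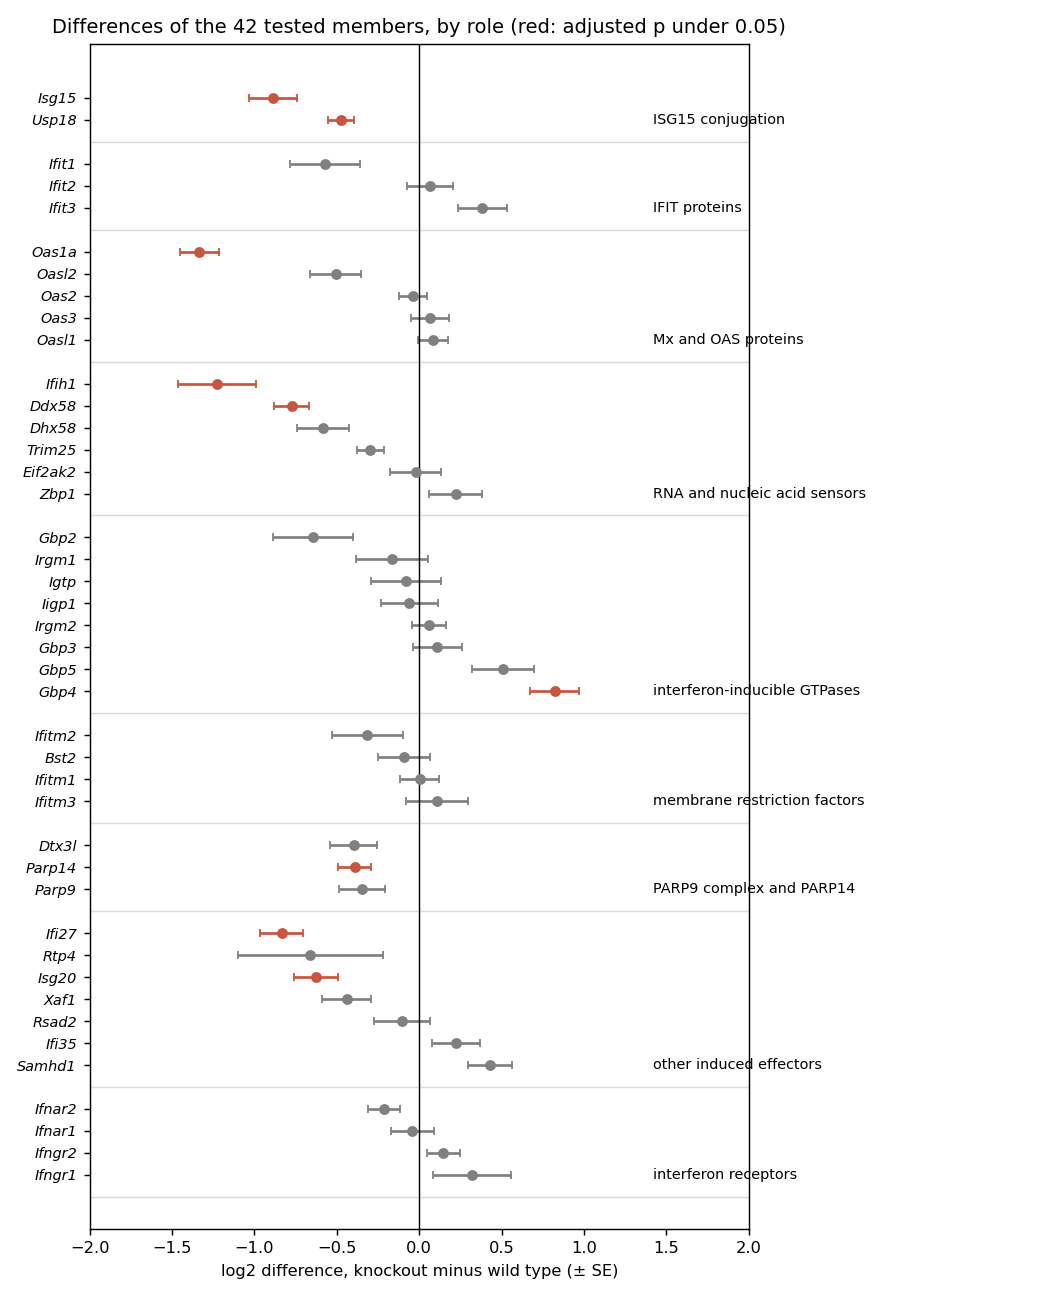
Difference between the arrays labelled knockout and the wild-type arrays for each of the 42 tested members, grouped by role, as log2 ± SE from limma (4 wild-type and 3 knockout arrays), with members under an adjusted p of 0.05 in red. Red points lie left of 0 in every role group that holds one except the GTPases, where Gbp4 is the sole red point, at 0.82.

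Promoter windows are shown for 4 called members and for 1 member that was not called, all picked because they hold a match to the response element. The sequences are RefSeq windows of assembly GRCm38.p6, 300 bases around each annotated start, all 5 on the minus strand of the chromosome and printed 5′ to 3′ in the direction of transcription. Capitals mark matches to the ISRE core GAAANNGAAA on either strand, overlapping matches being joined.
Oas1a, chr5:120907476-120907775: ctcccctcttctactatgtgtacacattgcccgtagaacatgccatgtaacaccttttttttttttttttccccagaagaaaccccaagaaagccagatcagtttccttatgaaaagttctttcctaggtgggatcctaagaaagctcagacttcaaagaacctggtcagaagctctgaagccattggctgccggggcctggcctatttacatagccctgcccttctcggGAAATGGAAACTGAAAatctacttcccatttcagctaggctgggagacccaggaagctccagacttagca
Ddx58, chr4:40239776-40240075: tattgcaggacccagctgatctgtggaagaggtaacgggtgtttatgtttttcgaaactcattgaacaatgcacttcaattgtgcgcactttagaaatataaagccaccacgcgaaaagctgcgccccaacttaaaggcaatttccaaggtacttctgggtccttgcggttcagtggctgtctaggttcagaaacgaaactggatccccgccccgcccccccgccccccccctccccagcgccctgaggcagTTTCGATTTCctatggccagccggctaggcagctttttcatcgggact
Isg15, chr4:156200769-156201068: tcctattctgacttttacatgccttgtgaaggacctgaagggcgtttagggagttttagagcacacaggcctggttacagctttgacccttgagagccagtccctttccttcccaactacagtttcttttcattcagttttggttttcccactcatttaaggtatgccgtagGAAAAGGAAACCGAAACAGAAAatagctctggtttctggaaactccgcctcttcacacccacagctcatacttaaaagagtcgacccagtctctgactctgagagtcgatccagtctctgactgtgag
Ifih1, chr2:62646206-62646505: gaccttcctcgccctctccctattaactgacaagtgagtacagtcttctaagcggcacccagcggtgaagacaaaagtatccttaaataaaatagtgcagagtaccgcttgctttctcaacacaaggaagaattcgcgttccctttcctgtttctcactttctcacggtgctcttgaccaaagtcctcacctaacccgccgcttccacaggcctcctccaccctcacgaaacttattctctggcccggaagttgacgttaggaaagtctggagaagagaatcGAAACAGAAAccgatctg
Oas3, chr5:120777610-120777909: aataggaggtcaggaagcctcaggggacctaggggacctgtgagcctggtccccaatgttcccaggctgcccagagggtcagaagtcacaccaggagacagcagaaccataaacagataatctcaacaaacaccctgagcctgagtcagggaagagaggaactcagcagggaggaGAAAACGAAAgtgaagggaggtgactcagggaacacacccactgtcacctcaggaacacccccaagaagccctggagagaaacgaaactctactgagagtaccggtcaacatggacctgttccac

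The Oas1a window holds overlapping matches that begin 20 and 14 bases before the start, and the Isg15 window a run of 3, at 78, 72 and 66 bases before it. The Ddx58 match begins 2 bases and the Ifih1 match 32 bases after the start. Oas3 has a match 75 bases before its start, and its transcript did not pass the test (difference 0.06, adjusted p = 0.839). RefSeq windows were matched for 33 members, some with more than 1 start, 37 windows in all. The ISRE core was found in 48.6% of member windows, against 3.44% of all 32851 windows of the same length. Among members with a window it was found in 4 of 5 called genes, Isg20 being the one without, and in 14 of 27 tested genes that were not called. No window was matched for the called genes Usp18, Ifi27, Parp14 and Gbp4. The GAS motif TTCNNNGAA was in 35.1% of member windows and 8.3% of all windows. It was found in 2 of the 5 called genes, Oas1a and Isg20, and in 11 of the 27 that were not called. The Gfi1 core AAATCAC was in 0 of the 37 member windows and 3.2% of all windows, which says only that these letters are not in these windows.

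Of the family of oligoadenylate synthetases, which make the second messenger that activates RNase L, Oas1a alone of 5 tested members was called. Its log2 ratio was -1.37, -1.05, -1.50 and -1.19 on wild-type arrays 1 to 4 and -2.48, -2.64 and -2.72 on knockout arrays 1 to 3. All 3 knockout arrays lay about a log2 unit below the lowest wild-type array. The difference was -1.34 ± 0.12 (SE), a 2.52-fold lower ratio (adjusted p = 0.00025), the 96th smallest p of all genes. A second Oas1a probe gave a smaller difference of -0.94 (adjusted p over probes 0.000808). Oas1a lies in a cluster of similar genes, and cross-hybridization of its probes with those copies was not tested. Oasl2, a relative of the synthetases with a ubiquitin-like tail, read -4.55, -4.31, -4.80 and -4.62 in wild type and -4.83, -5.01 and -5.40 in knockout, without overlap. It was above background on 3 wild-type arrays and 1 knockout array, and its difference of -0.51 ± 0.15 did not pass (adjusted p = 0.0849). It was -1.61 with the scanner software's own ratio (adjusted p = 0.222), and without knockout array 1 it was -0.63 (adjusted p = 0.0465). Oasl1 read -5.29 to -4.99 in wild type and -5.04 to -4.97 in knockout, Oas3 -0.57 to -0.36 and -0.63 to -0.16, and Oas2 -3.30 to -3.04 and -3.23 to -3.20. The knockout values fell within or across the wild-type range in these 3 genes, with differences of 0.08, 0.06 and -0.04.

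Both members of the ISG15 pathway that were listed were lower on the arrays labelled knockout. Isg15, a ubiquitin-like protein that is attached to newly made proteins during infection, read -1.74, -1.24, -1.80 and -1.59 in wild type and -2.26, -2.60 and -2.59 in knockout. The groups did not overlap, and the gap between them was a little smaller than the range of the wild-type arrays. The difference was -0.89 ± 0.14, a 1.85-fold lower ratio (adjusted p = 0.00598), and a second probe gave -0.88 (adjusted p over probes 0.00801). The call ended once slides were blocked, at -0.78 (adjusted p = 0.0915). Usp18, the protease that removes ISG15 and also blocks signalling at the interferon receptor, read -4.91, -4.81, -4.95 and -4.80 in wild type and -5.27, -5.36 and -5.40 in knockout. The groups did not overlap and the spread in each was small (SD 0.07 in both). The difference was -0.48 ± 0.08 (adjusted p = 0.00648), and -0.47 once slides were blocked, which ended the call (adjusted p = 0.0839). Its sample-channel signal was 6.95 to 7.61 log2 units, close to the offset added in the background correction, which draws the ratios of dim probes towards 0.

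The 6 tested sensors and their partners held 2 called genes, both cytoplasmic helicases, and their median difference was -0.44. Ddx58 (current symbol Rigi), which encodes RIG-I, the sensor of short viral RNA with a triphosphate end, read 1.20, 1.36, 1.26 and 1.40 in wild type and 0.75, 0.49 and 0.35 in knockout. Every knockout array was below the lowest wild-type array. The difference was -0.77 ± 0.11, 1.71-fold lower (adjusted p = 0.00269), and a second probe gave -0.46 (adjusted p over probes 0.0163). Ifih1, which encodes MDA5, the sensor of long double-stranded RNA, read 1.12, 1.35, 0.93 and 1.16 in wild type and 0.53, -0.11 and -0.67 in knockout. The 3 knockout arrays were spread widely here (SD 0.60, against 0.17 in wild type), with array 1 nearest to the wild type and array 3 farthest from it. The difference was -1.23 ± 0.24, 2.34-fold lower (adjusted p = 0.0132), and -1.14 with slides blocked, where it did not pass (adjusted p = 0.098). A second Ifih1 probe, above background on 3 wild-type arrays and 1 knockout array, gave -0.13 and did not pass (adjusted p over probes 0.628), so the 2 probes of this gene disagreed in size, and the mean of both gave -0.68.

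The remaining sensors did not pass. Dhx58, which encodes LGP2, a helicase that modulates both of the others, read 0.51, 1.10, 1.01 and 1.11 in wild type and 0.55, 0.14 and 0.35 in knockout. Wild-type array 1 lay within the knockout range and the other 3 wild-type arrays above it. The difference was -0.58 ± 0.16 (adjusted p = 0.0594). Without wild-type array 1 it was -0.72 (adjusted p = 0.0104), and without knockout array 1 it was -0.69 (adjusted p = 0.0494). Trim25, the ubiquitin ligase that activates RIG-I, read -0.53, -0.47, -0.52 and -0.55 in wild type and -0.83, -0.93 and -0.69 in knockout, without overlap. Its difference of -0.30 ± 0.08 missed the threshold (adjusted p = 0.0653), and without knockout array 3 it was -0.36 (adjusted p = 0.0407). Zbp1, a sensor of Z-form nucleic acid that can trigger cell death, read 0.72, 1.12, 0.29 and 0.73 in wild type and 0.91, 0.94 and 0.94 in knockout (difference 0.22, adjusted p = 0.541). A second Zbp1 probe had the opposite sign, at -0.14 (adjusted p over probes 0.807), with knockout arrays at 0.57, 0.05 and -0.46. Eif2ak2, the RNA-dependent kinase PKR, which halts translation, read -0.50 to -0.10 in wild type and -0.56 to 0.08 in knockout, the knockout arrays lying on both sides of the wild-type range.

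**Figure D2:**
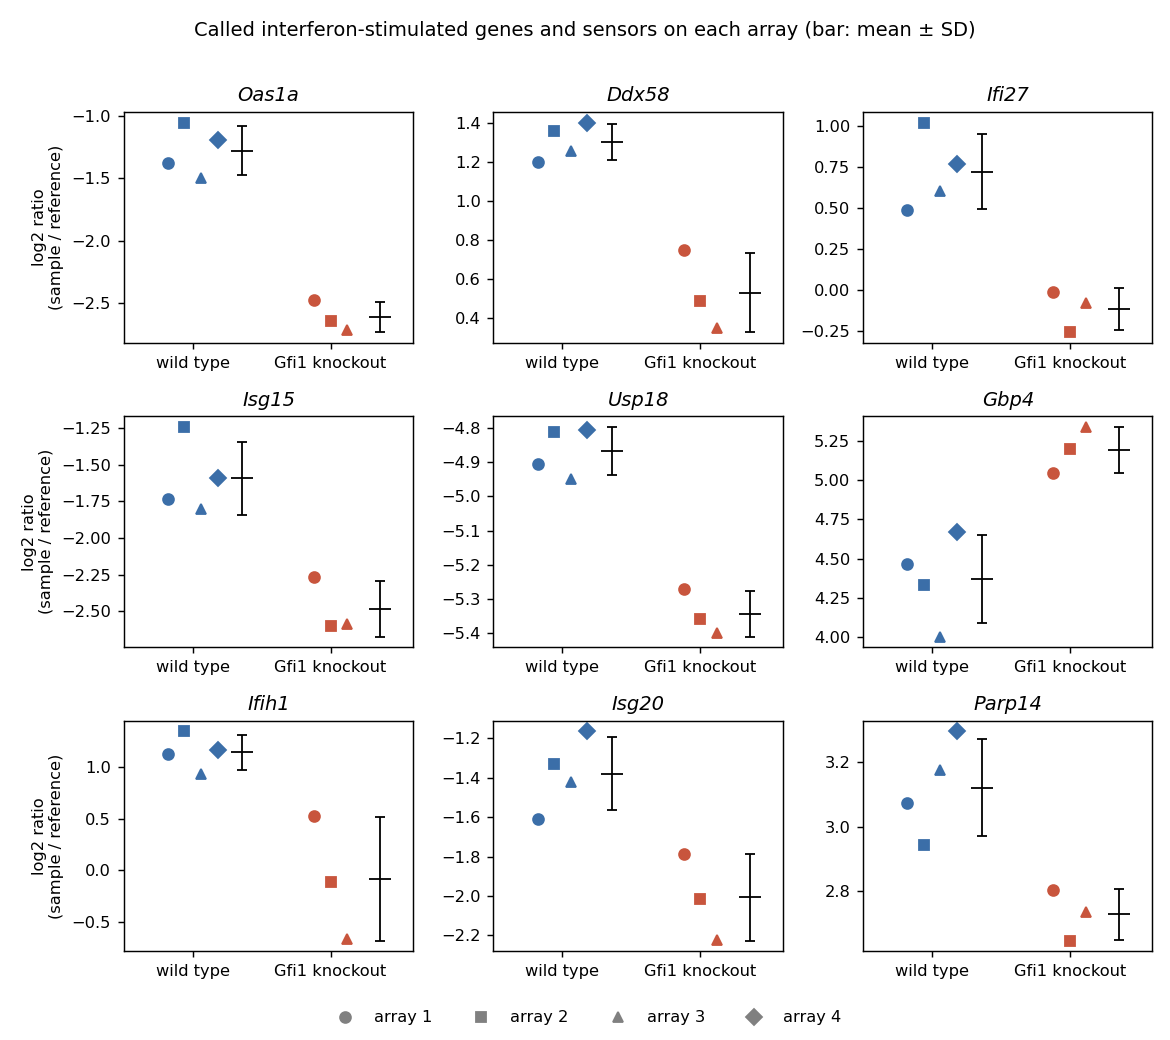
Log2 ratio of sample over reference on each array for the 9 called members, with wild-type arrays in blue, arrays labelled knockout in red, the symbol giving the array number and the bar the mean ± SD (n = 4 and n = 3); each panel has its own axis. In each panel the red and blue points do not overlap, red is lower in 8 panels and higher for Gbp4, and Ifih1 shows the widest spread among red points, from -0.67 to 0.53.

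Interferon-inducible GTPases, which coat and disrupt the vacuoles of intracellular pathogens, gave the only called rise. Gbp4, a guanylate-binding protein, read 4.47, 4.33, 4.01 and 4.67 in wild type and 5.04, 5.19 and 5.33 in knockout. No knockout array fell as low as a wild-type array. The difference was 0.82 ± 0.15, 1.77-fold higher (adjusted p = 0.00993), and 0.62 with slides blocked, where it did not pass (adjusted p = 0.128). Gbp5, which promotes inflammasome assembly, read 1.29, 1.48, 0.98 and 1.22 in wild type and 1.95, 1.26 and 2.05 in knockout, where array 2 stayed within the wild-type range. Its difference was 0.51 ± 0.19 (adjusted p = 0.165), and 0.76 without knockout array 2 (adjusted p = 0.0201). Gbp2, another guanylate-binding protein, had the opposite sign, reading 3.28, 3.66, 2.67 and 3.44 in wild type and 3.02, 2.58 and 2.25 in knockout. Wild-type array 3 was the low one of its group, and without it the difference moved from -0.64 ± 0.24 (adjusted p = 0.166) to -0.84 (adjusted p = 0.0406). Irgm1, a regulator of the immunity-related GTPases, read -0.49, -0.26, -0.50 and -0.22 in wild type and 0.07, -0.66 and -1.02 in knockout. Its knockout arrays lay on both sides of the wild-type range, at a difference of -0.17 (adjusted p = 0.764). The other 4 members, Gbp3, Igtp, Irgm2 and Iigp1, differed by -0.08 to 0.11.

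Parp14, Parp9 and Dtx3l encode ADP-ribosyltransferases and the ubiquitin ligase that partners PARP9. All 3 had differences below 0, with a median of -0.39, and 1 was called. Parp14 read 3.07, 2.94, 3.17 and 3.30 in wild type and 2.80, 2.65 and 2.74 in knockout. The groups did not overlap, although the gap between the nearest arrays was small beside the wild-type spread. Its difference was -0.39 ± 0.10 (adjusted p = 0.044), and the call was lost in 6 of 7 fits that each left out 1 array and in the fit blocked on slides (-0.43, adjusted p = 0.166). Dtx3l read 2.06, 2.43, 2.02 and 2.48 in wild type and 1.94, 1.99 and 1.63 in knockout without overlap (-0.40 ± 0.14, adjusted p = 0.153). Parp9 read 2.56, 2.75, 2.95 and 3.00 in wild type and 2.72, 2.26 and 2.43 in knockout, with knockout array 1 inside the wild-type range (-0.35 ± 0.14, adjusted p = 0.197).

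Among 7 tested effectors of other kinds, 2 were called lower, and the median difference was -0.44. Ifi27, a small membrane protein induced by type I interferon, read 0.49, 1.02, 0.61 and 0.77 in wild type and -0.01, -0.26 and -0.08 in knockout. Every knockout array was below every wild-type array. The difference was -0.84 ± 0.13, 1.78-fold lower (adjusted p = 0.00468), and -0.71 with slides blocked, where it did not pass (adjusted p = 0.0755). Isg20, an exonuclease that degrades viral RNA, read -1.61, -1.33, -1.42 and -1.16 in wild type and -1.78, -2.01 and -2.22 in knockout. Knockout array 1 was close to wild-type array 1. The difference was -0.63 ± 0.13, 1.54-fold lower (adjusted p = 0.0196), and a second probe gave -0.77 (adjusted p over probes 0.0171). Blocking on slides gave -0.56 and ended the call (adjusted p = 0.0678). Samhd1, which depletes the nucleotides that reverse transcription needs, read -0.22, -0.38, -0.34 and -0.04 in wild type and 0.40, 0.27 and -0.12 in knockout. Knockout array 3 was inside the wild-type range, and the difference of 0.43 ± 0.14 did not pass (adjusted p = 0.0994). Without that array it was 0.58 (adjusted p = 0.0192), while a second probe gave 0.08.

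Xaf1, a factor that counters inhibitors of apoptosis, read 0.74, 1.22, 0.63 and 1.13 in wild type and 0.59, 0.52 and 0.36 in knockout, without overlap. The difference was -0.44 ± 0.15 (adjusted p = 0.129), and its second probe gave -0.47 (adjusted p over probes 0.0218). Ifi35, which binds the signalling protein NMI, read 0.36, 0.45, -0.02 and 0.45 in wild type and 0.35, 0.47 and 0.78 in knockout (0.22, adjusted p = 0.466). Rtp4, a protein that binds viral RNA, varied most among wild-type arrays, which read -2.56, -1.67, -3.68 and -1.88, against -2.64, -3.02 and -3.67 in knockout. Its difference of -0.66 ± 0.44 was larger than that of Isg20 but was no larger than the wild-type spread (adjusted p = 0.485). It moved to -1.07 without wild-type array 3 (adjusted p = 0.0762), to -0.40 without wild-type array 2 and to -0.38 without knockout array 3. Rsad2, the enzyme viperin, read -2.38 to -1.72 in wild type and -2.42 to -1.97 in knockout (-0.10). Ifi44 was measured above background on wild-type arrays only, 1 of 4.

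None of the 3 IFIT genes, 4 membrane factors and 4 receptor chains passed in limma, and 2, 0 and 0 of them had an unadjusted p under 0.05. IFIT proteins bind viral RNA caps and ends: Ifit1 read -2.87, -2.63, -3.21 and -2.55 in wild type and -3.01, -3.29 and -3.87 in knockout (-0.57 ± 0.21, adjusted p = 0.165). Ifit3, which binds to and stabilises IFIT1, differed the other way, at -2.50, -2.42, -2.77 and -2.20 in wild type and -1.93, -1.95 and -2.38 in knockout (0.38 ± 0.15, adjusted p = 0.193). The 2 genes thus had opposite signs with overlapping groups, and Ifit2 read -2.39 to -2.01 in wild type and -2.32 to -1.83 in knockout. When wild-type array 4 was left out together with knockout array 3, Ifit3 differed by 0.62 (adjusted p = 0.0349). Of the membrane factors, which hold back viral entry or tether virions, Ifitm2 read -0.50, 0.31, 0.30 and -0.30 in wild type and -0.54, -0.48 and -0.07 in knockout (-0.31, adjusted p = 0.497). Bst2, Ifitm1 and Ifitm3 differed by -0.09, 0.00 and 0.11, and their knockout arrays lay within or across the wild-type range.

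The interferon receptor chains had small differences. Ifnar2, a chain of the type I receptor, read 0.03, 0.13, 0.20 and 0.22 in wild type and -0.09, -0.22 and 0.10 in knockout (-0.21 ± 0.10, adjusted p = 0.272), and Ifnar1, the other chain, differed by -0.04. Ifngr2, a chain of the interferon gamma receptor, read -0.14, -0.24, -0.08 and 0.11 in wild type and -0.01, 0.06 and 0.13 in knockout (0.15, adjusted p = 0.484). Ifngr1, the chain that binds interferon gamma, read 0.38, 0.50, 1.49 and 0.52 in wild type and 0.94, 1.07 and 1.11 in knockout. Wild-type array 3 was above all knockout arrays and the other 3 wild-type arrays were below them. The difference was 0.32 ± 0.24 (adjusted p = 0.542), and without wild-type array 3 it was 0.58 (adjusted p = 0.00958), so a single array decided whether this receptor was called.

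The size of the differences was similar in the normalized sample channel. The reference channel takes part in that normalization, so these values are not independent of the ratios. After scaling between arrays, Oas1a read 11.82, 12.14, 11.76 and 12.06 log2 units in wild type and 10.86, 10.57 and 10.55 in knockout, a difference of -1.29. Ddx58 read 12.78, 12.95, 12.93 and 13.06 against 12.37, 12.02 and 11.93, a difference of -0.82. Like the other called members below, these 2 genes were separated between the groups in the normalized sample signal. Isg15 read 11.92, 12.33, 11.82 and 12.07 against 11.43, 11.12 and 11.02, a difference of -0.85. Ifih1 read 10.64, 10.86, 10.48 and 10.69 against 10.02, 9.28 and 8.85, a difference of -1.29. Gbp4 read 13.52, 13.39, 12.99 and 13.73 against 14.15, 14.20 and 14.45, a difference of 0.86. The spread of Ifih1 among knockout arrays was thus present in the sample signal. In the sample channel the other called members differed by -0.69 (Ifi27), -0.65 (Isg20), -0.49 (Usp18) and -0.44 (Parp14). The reference channel, which holds the same RNA on every array, differed between the groups by -0.08 to 0.29 over the 42 members, the largest value belonging to Ifitm1.

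Each array was also left out in turn. Oas1a, Ddx58, Ifi27, Isg15, Usp18 and Gbp4 were called in all 7 of these fits, with differences of -1.41 to -1.26 for Oas1a, -0.88 to -0.68 for Ddx58 and 0.70 to 0.92 for Gbp4. For Ifih1 the difference ran from -1.53 without knockout array 1 to -0.93 without knockout array 3, and its call was lost without knockout array 2 (-1.21, adjusted p = 0.0502). Isg20 was called in 3 of 7 fits, and was lost when wild-type array 2, wild-type array 4, knockout array 2 or knockout array 3 was left out (adjusted p at most 0.0649), while its difference stayed between -0.74 and -0.52. Parp14 was called in 1 of 7 fits, the one without wild-type array 2, and elsewhere reached an adjusted p of up to 0.14, with differences of -0.45 to -0.33. The count of called members stayed between 7 and 10, while the count over all genes ran from 1253 to 1888. The median difference over members ran from -0.23 to -0.08, the first of these without knockout array 1 and the second without wild-type array 4.

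**Figure D3:**
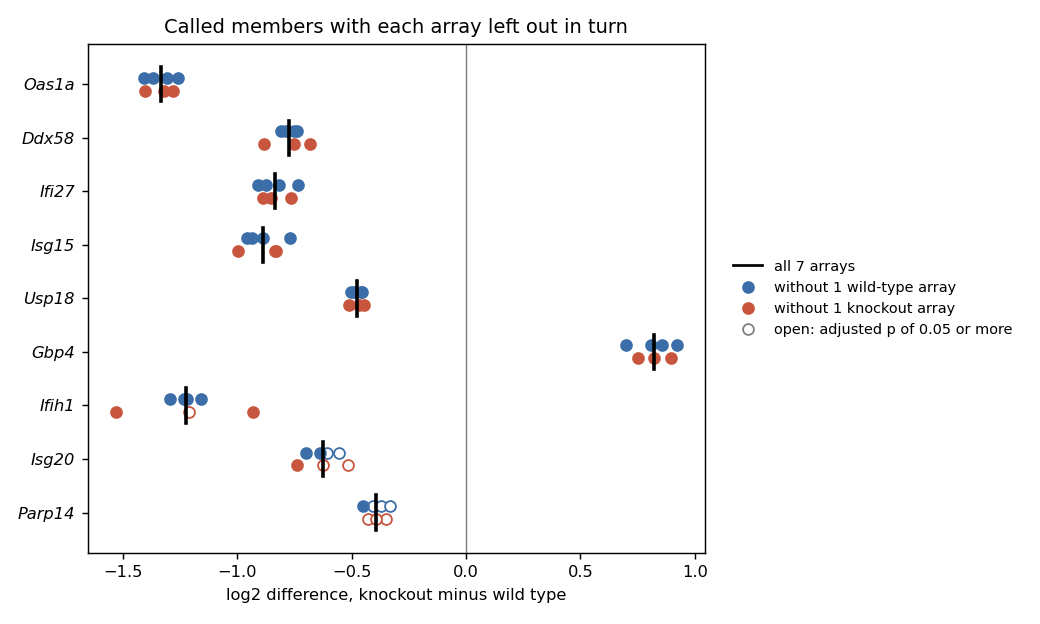
Log2 difference, labelled knockout minus wild type, for the 9 called members with each array left out in turn (blue, without 1 wild-type array; red, without 1 knockout array; black line, all 7 arrays; open symbols, adjusted p of 0.05 or more). All symbols stay on the same side of 0, and open symbols occur for Ifih1, Isg20 and Parp14.

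Slide and genotype were partly mixed. With slide as a fixed block, 1.89% of all genes and 2 of 42 members were called, Oas1a (-1.30, adjusted p = 0.00966) and Ddx58 (-0.72, adjusted p = 0.026); the slide with wild-type arrays 2 and 3 alone then adds nothing to the difference. The adjusted p of the other 7 was 0.0678 to 0.166. Within the slide of wild-type array 4 and knockout array 1, Oas1a differed by -1.29 and Ddx58 by -0.65, and within the slide of wild-type array 1 and knockout arrays 2 and 3 by -1.31 and -0.78. These values were close to each other and to the pooled ones. Ifih1 was the member for which the slides differed most among the called ones, at -0.63 and -1.51, followed by Gbp4 at 0.38 and 0.80. Isg15 gave -0.67 and -0.86, Ifi27 -0.78 and -0.66, Isg20 -0.62 and -0.51, Parp14 -0.49 and -0.38, and Usp18 -0.47 and -0.48. Each called member kept its sign on both slides, which the lack of overlap between groups fixes. Among the 4 arrays of low Xist, 2 of each group, Oas1a differed by -1.35 and Ddx58 by -0.66, and among the 3 of high Xist, where the knockout group is 1 array, by -1.38 and -0.98. The sets were further apart than for Ddx58 in Ifih1 (-1.03 against -1.72) and Isg20 (-0.43 against -0.93). They were closer than for Ddx58 in Parp14 (-0.28 against -0.50), Isg15 (-0.94 against -0.89), Usp18 (-0.46 against -0.53), Ifi27 (-0.89 against -0.77) and Gbp4 (0.72 against 0.998). With Xist minus Ddx3y as a covariate 10 members were called, 1 higher and 9 lower, among them all 9 and Oasl2 (-0.57, adjusted p = 0.0088). That fit called 2358 of 25349 genes, against 1905 without the covariate.

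The arrays of 1 genotype also differed among themselves in these genes. Wild-type array 3 was the lowest of its group in 25 of 42 members (59.5%, against 26.7% of all genes), and wild-type array 1 was the highest in 0 of them (all genes 21.3%). Wild-type array 4 was the highest in 22 (52.4%, all genes 21.8%) and wild-type array 2 in 17 (40.5%, all genes 28.8%). Arrays 2 and 4 were both above arrays 1 and 3 in 25 of 42 members (59.5%), and in 13.2% of all genes. This grouping follows the arrays that were high and low in these same members, so its share is a description and not a test. The same wild-type arrays were high or low across many of these genes at once. In the knockout group, array 1 was the highest in 24 members (57.1%, all genes 30.2%). The median member lay -0.05, 0.12, -0.13 and 0.12 from the wild-type mean on wild-type arrays 1 to 4 and -0.17, -0.28 and -0.15 from it on the knockout arrays. The share of probes above background was 80.4% on wild-type array 4 and 80.9% on knockout array 1, which shared a slide, and 67.4% to 75.9% on the others; its part in the order of the arrays was not tested.

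**Figure D4:**
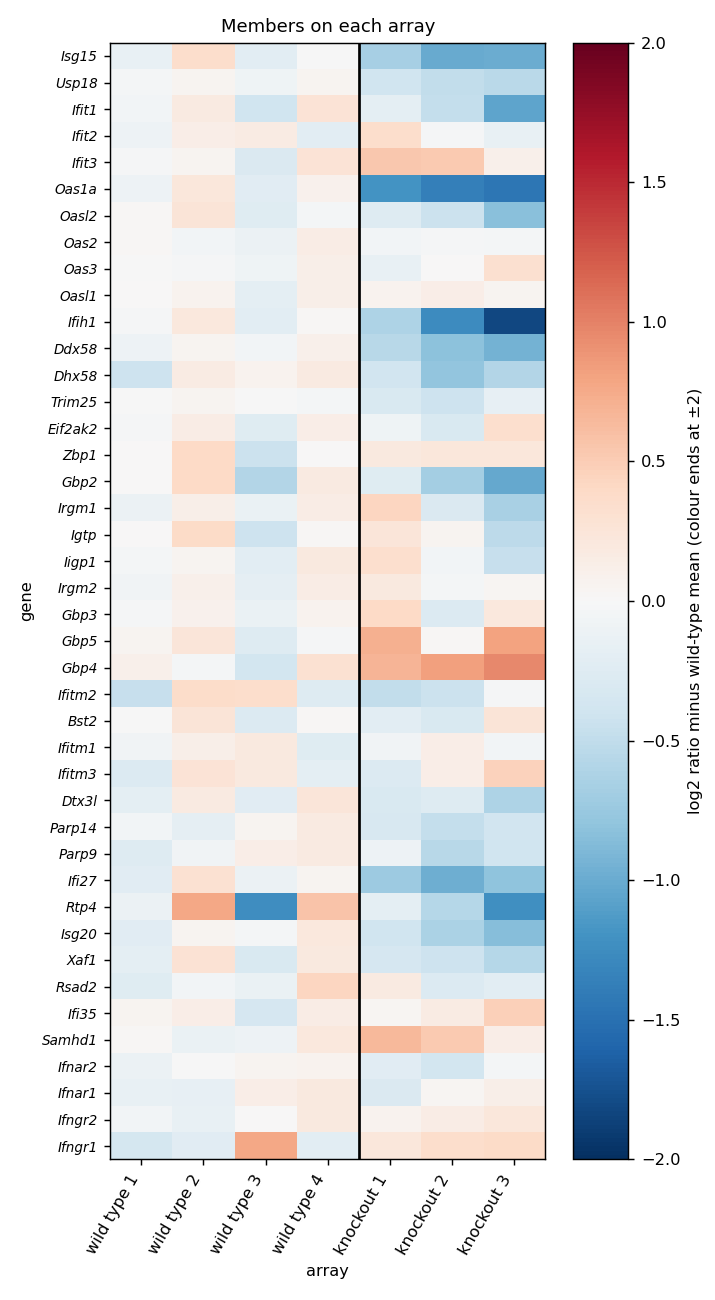
Log2 ratio on each array minus the wild-type mean of the gene for the 42 tested members (rows, by role) on 4 wild-type arrays and 3 arrays labelled knockout (columns); red is above the wild-type mean, blue below, and the colour scale ends at 2 on either side. Oas1a, Ifih1, Ddx58, Isg15 and Ifi27 are blue on all 3 knockout columns, Gbp4 is red on all 3, and the column of wild-type array 3 is blue in many rows.

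**Figure D5:**
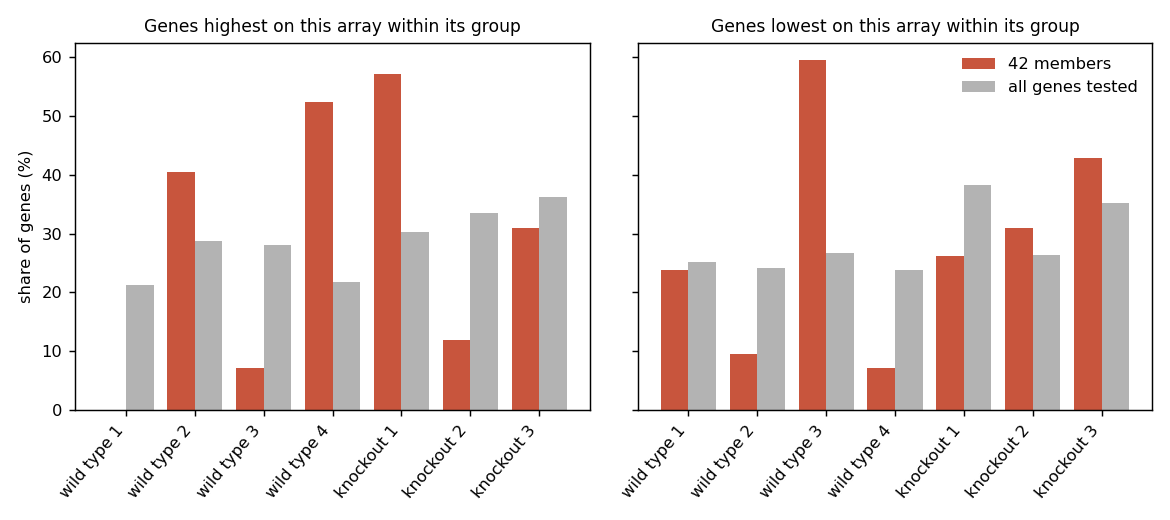
Share of genes (percent) for which each array was the highest (left) or the lowest (right) of its own group, for the 42 members (red) and all tested genes (grey). Wild-type array 3 was the lowest of its group in 59.5% of members against 26.7% of all genes, and wild-type array 1 was the highest in none of them.

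Of 75 further genes tested from wider interferon lists, 11 were called (14.7%), 5 higher and 6 lower, against the background of 7.52%, 3.28% and 4.24% over all genes, and their median difference was -0.07. Among 23 genes of signalling and sensing, Tlr7, the endosomal receptor for single-stranded RNA, read 0.09, 0.10, -0.07 and 0.36 in wild type and 1.43, 1.20 and 0.86 in knockout, without overlap. It was higher by 1.04 ± 0.14 (adjusted p = 0.00259). Ptpn2, a phosphatase that restrains Janus kinases, was lower (-0.68 ± 0.11, adjusted p = 0.00568), and the kinase Jak2 was lower too (-0.59 ± 0.15, adjusted p = 0.0394). Stat2 and Irf9, which take part in binding the ISRE, were not called and differed by -0.23 and by -0.31 (adjusted p = 0.0932). 

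Among 41 further interferon-induced genes, 4 were higher and 4 lower. The kinase Cmpk2, which supplies mitochondrial nucleotides, read -0.38, -0.46, -0.81 and -0.26 in wild type and 0.95, 0.50 and 0.39 in knockout. It was higher by 1.09 (adjusted p = 0.00386), Phf11d by 0.995 (adjusted p = 0.00583), Phf11b by 0.77 (adjusted p = 0.00419) and Gbp6 by 0.94 (adjusted p = 0.0281). Tor3a, an ATPase of the endoplasmic reticulum, read 0.77, 0.73, 0.77 and 1.06 in wild type and -0.13, -0.04 and -0.09 in knockout, all of them below the wild-type range. The lower ones were Tor3a (-0.92, adjusted p = 0.000656), Tdrd7, a Tudor domain protein (-0.61, adjusted p = 0.00194), Ly6e, a surface protein that limits coronavirus entry (-0.58, adjusted p = 0.0179), and Parp12, an ADP-ribosyltransferase (-0.81, adjusted p = 0.0181). Gbp6 and Parp12 fall outside the rule for naming genes of the lists and were added after their values were seen. Gbp6 was thus the second guanylate-binding protein to be called higher. Of the others in this list, Gbp7 differed by -0.40, Gbp8 by 0.33 and Gbp9 by 0.11, and none was called. None of 11 tested genes of antigen processing was called in limma, with 2 at an unadjusted p under 0.05, and their differences ran from -0.29 to 0.30. With slide as a fixed block, 5 of the 75 genes were called, 3 higher and 2 lower. With the mean of a gene's probes 10 were called, 4 higher and 6 lower. Tlr7, Cmpk2 and Gbp6 each have 2 probes, of which 1 stands for the gene in the values above.

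Markers of other cell types that make or sense interferon were read beside these values. Of 6 tested markers of plasmacytoid dendritic cells, Tlr7 was higher and the transcription factor Irf8 lower (-1.34 ± 0.26, adjusted p = 0.0142), and the sum of their sample-channel signals ran from 40100 to 51400 in wild type and 39100 to 45000 in knockout. The defining surface marker Siglech differed by -0.12 and was above background on all 7 arrays. Siglech made up most of that sum, which therefore shows little of the other markers. Its mean sample-channel signal in wild type was 15.34 log2 units, against 9.60 for Tlr7 and 9.73 for Irf8. Of 5 macrophage, 5 B cell, 6 T cell and 3 NK cell markers tested, 0 were called in limma, with 1, 0, 3 and 1 at an unadjusted p under 0.05. Their summed signals were 2870 to 3480 against 3350 to 3490 for macrophages, 15900 to 19500 against 13800 to 16800 for B cells, 6570 to 12000 against 6750 to 15900 for T cells and 384 to 426 against 447 to 472 for NK cells. Most of the B cell sum was Cd79b, at a mean of 14.08 log2 units in wild type. For the 12 ILC2 markers the sum was 793000 to 1110000 in wild type and 592000 to 776000 in knockout, without overlap. The bright probes of Icos and Il5 weigh heavily in it, with sample-channel differences of -0.68 and -0.78. For these 2 the reference channel, the same RNA on every array, differed by -0.57 and -0.45. Their log2 ratios differed by -0.11 and -0.33 and were not called (limma adjusted p = 0.7 and 0.247). For Il1rl1 the reference differed the other way, by 0.48. The sum is therefore not a measure of ILC2 transcripts alone. The part of this lower ILC2 sum in the differences above was not tested. The NK receptor Ncr1 was above background on no array. The part of other cell types in the differences above was not tested.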

How the data were processed

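Per the file headers, the authors' scanner files come from Agilent Feature Extraction 11.0.1.1. The submitters' processing notes give 10.7.3.1 instead. The deposited files give each spot's intensity on a linear scale, and a log10 ratio of red over green that was background-subtracted and dye-normalized per the file headers. The deposited series table holds log2 ratios that equal this log10 ratio, turned to log2, to within 0.001, with column medians of 0.163 to 0.254.

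Median signals were corrected with normexp (offset 50) after 2597 flagged spots had been left out, normalized by loess within arrays and averaged over spots of 1 probe, in limma 3.58.1 under R 4.3.3. Symbols were looked up by accession in a RefSeq table (GRCm38.p6): of 39429 probes, 26581 had 1 gene and 12848 stayed unnamed. Genes were tested where at least 3 arrays were well above background and each group had 2 values. The probe of highest mean signal stood for a gene, and no spot was saturated in either channel. Groups were compared with lmFit and eBayes and Benjamini-Hochberg adjustment over all 25349 genes, with no block, and "called" means an adjusted p under 0.05. Sample-channel levels are after loess and Aquantile scaling.

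Members, lists and role groups were chosen with earlier results of these data known. Values by array are given for every called member and for up to 3 others of each role group with the smallest p, and for Tlr7, Cmpk2 and Tor3a, picked after their values were seen. From the wider lists called genes are named, up to 6 a list by smallest p; a value of the signalling list is not reported here. Samples were separate pools of mice per the labels, so p-values measure the spread between pools. Alternatives changed the ratio, background, scaling, filter, probe choice, variance model, slide, replicate number and arrays used. The covariate from Xist and Ddx3y was added after seeing the data. Promoter motifs were searched with scripts on both strands. The fit was checked on simulated data.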

Additional observations from a re-analysis of the deposited data

Results flagged for a closer look

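Of the 42 tested members, 1 had a wild-type array standing far from the other 3. Ifngr1, the chain of the interferon gamma receptor that binds the cytokine, read 1.49 on wild-type array 3, against 0.38 to 0.52 on the other wild-type arrays and 0.94 to 1.11 on the arrays labelled knockout. Its gap to the nearest array was 0.874 of the range of the group, above Dixon's critical value for 4 samples. Chance flags about 1 in 20 groups at this level, so that 1 in 42 is no more than chance would give. With that array the difference was 0.32 (adjusted p = 0.542), and without it 0.58 (adjusted p = 0.00958). The wild-type gaps nearest below the critical value were those of Dhx58 on array 1 (0.823) and Ifi35 on array 3 (0.807).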

How the results depend on the processing

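Oas1a and Ddx58 were called in all 22 alternatives tried, with differences of -1.41 to -1.14 and -0.88 to -0.61. With slide as a fixed block, 2 members and 5 of the wider list were called, in place of 9 and 11; that fit called 478 of 25349 genes. Leaving out each array gave 7 to 10 called members, 8 to 14 of the wider list and a median member difference of -0.23 to -0.081. Those fits called 1253 to 1888 genes. Isg20 was lost in 9 and Parp14 in 14 of 22 alternatives. The labels give no pairing. Same-numbered arrays' deviations correlated at 0.0363, 0.24 and 0.0208, and those of differently numbered arrays at -0.24 to 0.27. These values do not settle whether arrays of 1 number were paired. With a replicate block, in which wild-type array 4 has no partner and adds nothing, 6 members were called, 2 higher and 4 lower, of 1083 genes. Under it Ifi27 (-0.82, adjusted p = 0.0511), Usp18 (-0.46, 0.056), Isg20 (-0.55, 0.101) and Parp14 (-0.33, 0.127) were lost and Ifit3 (0.47, adjusted p = 0.0495) was gained. With wild-type array 4 and knockout array 3 left out together, 8 members were called, 3 higher and 5 lower, of 1104 genes. Signs turned in members that were not called, as follows. With the scanner software's own ratio, Ifitm1 was -0.0077. With the series table, Ifitm1 was -0.0078. Without background subtraction, Ifitm1 was -0.0045. With median centring, Bst2 was 0.010, Eif2ak2 0.034, Ifnar1 0.043, Igtp 0.0011 and Oas2 0.029. In the sample channel alone, Eif2ak2 was 0.013, Ifnar1 0.071 and Iigp1 0.13. With flagged spots kept, Ifit2 was -0.11 and Oasl1 -0.024. With the mean of a gene's probes, Iigp1 was 0.094. With slide as a fixed block, Ifitm2 was 0.029 and Oas3 -0.010. With slide as a random block, Ifitm1 was -0.023. With the replicate block, Eif2ak2 was 0.021, Ifit2 -0.0065, Ifitm1 -0.079, Ifnar1 0.019, Iigp1 0.0035, Oas2 0.011 and Rsad2 0.037. Without the 2 arrays, Ifitm1 was -0.050, Ifitm3 -0.13, Igtp 0.15, Iigp1 0.20, Irgm1 0.12, Oas2 0.011, Oas3 -0.026 and Rsad2 0.090. With the Xist covariate, Eif2ak2 was 0.0068, Ifitm1 -0.0077 and Ifnar1 0.0041. Leaving out each array, Bst2 ran from -0.26 to 0.019, Eif2ak2 -0.20 to 0.12, Gbp3 -0.032 to 0.30, Ifit2 -0.080 to 0.17, Ifitm1 -0.079 to 0.070, Ifitm3 -0.069 to 0.29, Ifnar1 -0.12 to 0.079, Igtp -0.24 to 0.15, Iigp1 -0.25 to 0.14, Irgm1 -0.47 to 0.075, Irgm2 -0.0060 to 0.11, Oas2 -0.076 to 0.011, Oas3 -0.067 to 0.17 and Rsad2 -0.24 to 0.037. The cause was not tested. Signal over background limits Ifit1, Ifit2 and Oasl2, which were not above background on every array.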
